A study of Danio rerio with 36 samples.

Results

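The genes by which cells answer unfolded protein and a lack of amino acids were followed in zebrafish larvae that differed in the glucose of their medium and in the time since the caudal fin was cut. The response was represented by 49 gene symbols, and a member was every gene of the deposited table that carried exactly one of these names. Of the 49 symbols, 48 were found among 30221 genes. The symbol aars1 was not listed under that spelling and was skipped. All 48 members passed the filter on low values (at least 1 FPKM in at least 3 libraries), so each was among the 20120 genes tested.

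The larvae were wild type and RNA was taken from the whole animal. From 6 h post fertilization they were kept at 28.5 °C in regular medium, in 130 mM glucose or in 222 mM glucose. After 14 days of exposure the fin was removed under tricaine anaesthesia, leaving the spinal cord intact, and the animals went back to the medium they came from. By its title the series models diabetes in order to study regeneration and inflammation. In each of the 3 media there was a group of uncut larvae and groups taken 3, 24 and 48 h after amputation, with 3 libraries in each of the 12 groups. The age of the uncut larvae at sampling and the number of larvae in a library are not stated in the labels, nor whether replicates came from separate dishes, so the spread behind each p-value is that among these libraries and may be technical. Amputation, anaesthesia and time cannot be told apart in a comparison with uncut larvae. Glucose and the osmolarity it adds cannot be told apart either, because an osmotic control was not analysed here.

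Proteins that are secreted or set into membranes fold in the endoplasmic reticulum, where the chaperone encoded by hspa5 binds unfolded chains and holds the sensors Ern1 (Ire1), Eif2ak3 (Perk) and Atf6 inactive. Once released, Ern1 splices the RNA of xbp1 and Atf6 is cut to a transcription factor, and both raise genes for chaperones, disulfide isomerases and the machinery that sends misfolded protein to degradation. Eif2ak3, like the kinase that senses a lack of amino acids, slows translation while favouring that of Atf4, which raises genes for amino acid synthesis and transport and the stress genes ddit3, trib3 and chac1. These roles are known mostly from mammalian cells and yeast. The values used here sum all transcripts of a gene, so the splicing of xbp1 RNA and the activity of the kinases were not measured. Sequences of the members were not used here.

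By role the 48 members fall into 15 chaperones and their helpers, 3 disulfide isomerases, 9 sensors and transcription factors, 2 phosphatase subunits, 8 genes of degradation and translocation, and 11 genes of the amino acid response. Per length of transcript, the highest median over the 36 libraries was that of chac1, which encodes a glutathione-degrading enzyme, at 169 FPKM (88.5 to 351). The factor gene atf4a had a median of 112 FPKM (81.9 to 159) and hspa5 one of 93.2 FPKM (40.7 to 263). The lowest median was that of slc7a11, the cystine transporter, at 1.01 FPKM (0.312 to 1.83). Most members thus lay well above the filter, while slc7a11, ppp1r15b, dnajb9b and creld2 had at least 1 library below 1 FPKM. For 9 members another annotated gene overlaps the same stretch of the genome (dnajb9b, dnajb11, sdf2l1, atf6, ppp1r15b, herpud1, sec61b, chac1 and nupr1a). Whether the counting used strand is not given in the sources used here, so reads of these genes and of their neighbours may be mixed. For herpud1 and ppp1r15b the neighbour lies on the same strand, so counting by strand would not separate their reads.

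Levels are given below as CPM, counts scaled to the size of each library, and a log2 value is the log2 fold change ± its standard error between groups of 3 libraries. That standard error rests on a spread estimated over all 36 libraries, so it does not show the scatter of the libraries compared. A gene was called when its p from edgeR's quasi-likelihood test, adjusted over the 20120 genes, lay under 0.05. Total counts ran from 47904694 to 67514889 per library. In 4 libraries the mean correlation with the group lay more than 0.02 below that between the other replicates: replicate 3 of uncut larvae in regular medium, replicate 3 of uncut larvae in 222 mM, replicate 1 at 3 h in regular medium and replicate 1 at 24 h in 130 mM. Counts of called members are therefore followed by the count without these 4 libraries. For single libraries left out, the number of all genes called was not counted, so those counts of members have no background beside them. Nor was the share of all genes counted whose groups did not overlap. Skeletal muscle, pancreatic acinar, liver and intestinal marker genes were all abundant, with summed levels of at least 14152, 6713, 1178 and 2174 CPM in every library. Macrophage markers summed to between 35.9 and 71.0 CPM. In whole larvae, fewer cells of a type and less RNA per cell cannot be told apart.

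The libraries apart were visible in the members themselves, but not in these alone. In uncut regular medium liver markers summed to 1178, 4695 and 5824 CPM over the 3 libraries. Notochord and cartilage markers summed to 427, 1412 and 1646 CPM there, while acinar markers ranged from 11803 to 18967 CPM. The 15 chaperone genes summed to 749 CPM in replicate 3 of uncut regular medium, against 1679 and 1681 CPM in the other replicates. Replicate 3 of uncut 222 mM had 2447 CPM, while its other replicates had 1272 and 1401 CPM. Replicate 3 at 3 h in 222 mM, which was not among the 4 libraries, had 2939 CPM, while its other replicates had 1237 and 1272 CPM. These libraries were thus low or high in most chaperones at once. The 11 amino acid response genes summed to 1320 CPM in replicate 1 at 3 h in regular medium, where the others had 678 and 710 CPM, and to 964 CPM in replicate 3 at 3 h in 222 mM, where the others had 1460 and 1568 CPM. In replicate 3 at 3 h in 222 mM the sum of the chaperones was therefore high while that of the amino acid response genes was low. The largest part of the latter was chac1, with 483 CPM, against 689 and 802 CPM in the other replicates. Not every gene of that branch was low there, since asns had 36.4 CPM, against 24.1 and 20.6 CPM. The part of these libraries in each result was not tested beyond leaving single libraries out.

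**Figure D1:**
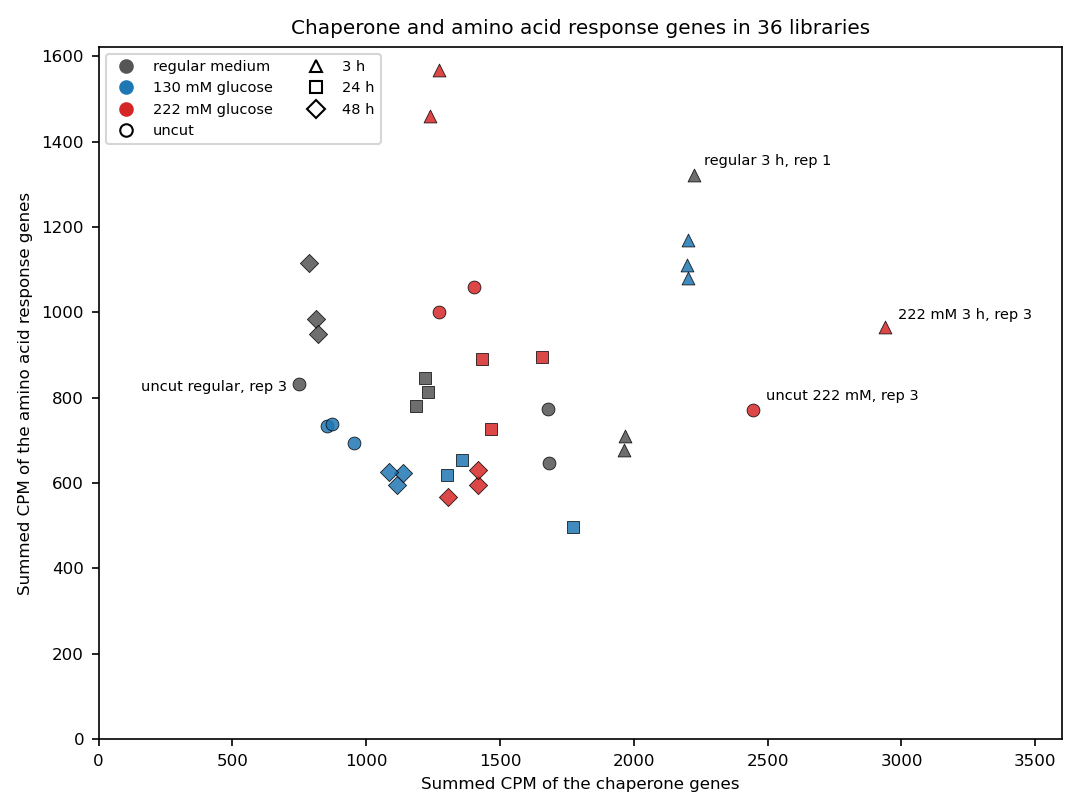
Each point is 1 library; the x axis is the summed level (CPM) of the 15 chaperone genes and the y axis that of the 11 amino acid response genes, with colour for the medium and shape for the time. The 3 libraries of 130 mM at 3 h lie together, with 2199 to 2203 CPM of chaperones, while replicate 3 of uncut regular medium (749 CPM), of uncut 222 mM (2447 CPM) and of 222 mM at 3 h (2939 CPM) lie away from their groups.

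**Figure D2:**
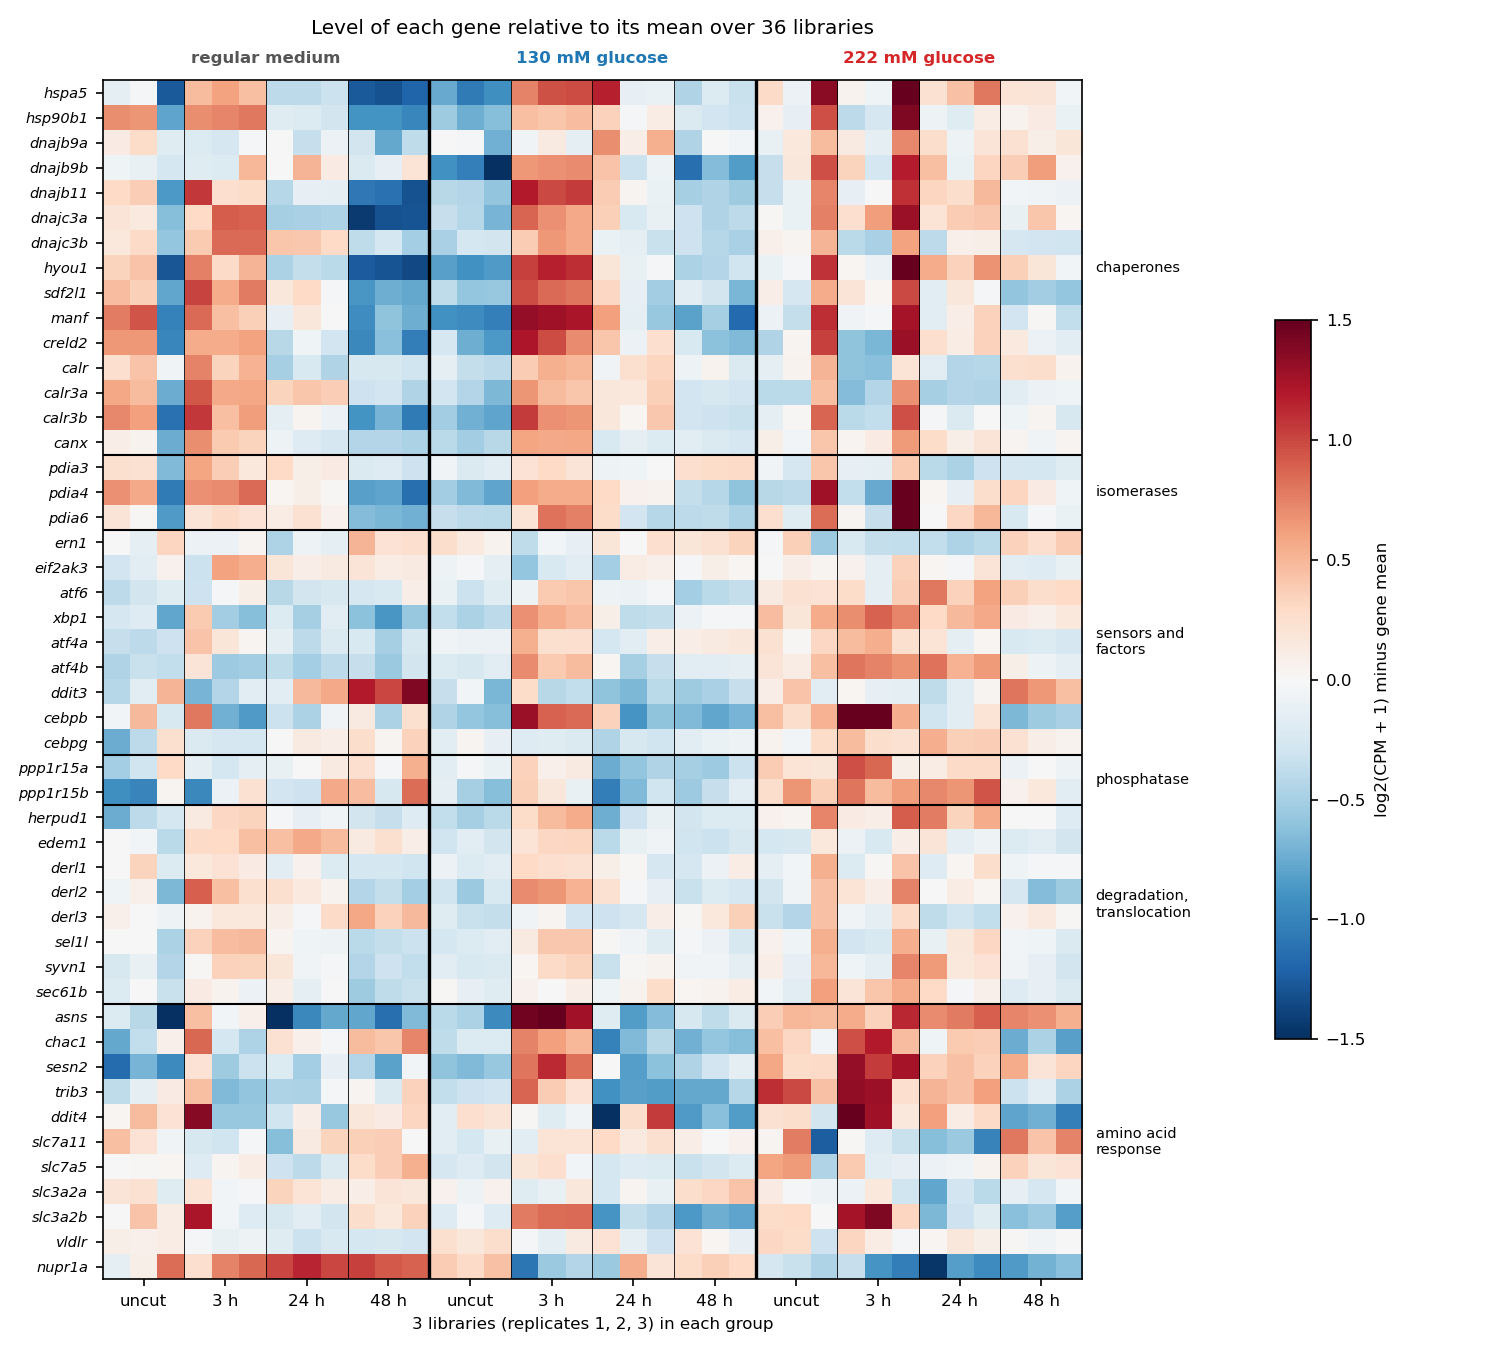
The 48 members (rows, by role) in 36 libraries (columns, by medium and time, 3 replicates each); colour is log2(CPM + 1) minus the mean of that gene over all libraries, on a scale that ends at 1.5 in either direction. At 3 h in 130 mM the chaperones other than dnajb9a are red in all 3 libraries, and at 48 h in regular medium those other than dnajb9b are blue.

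The widest movement of the response was 3 h after amputation in 130 mM glucose. Of the 48 members, 31 rose, 1 fell and 16 did not pass, while 20.9% of all genes tested were higher and 17.3% lower, 38.2% in all. The median log2 value of the members was 0.81, and that of all genes tested 0.01. The count of called members was 29 to 30 when any single library was left out, and 38 (35 higher, 3 lower) without the 4 libraries apart, where 9824 of all genes were called (7692 with all libraries).

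Chaperones made up the largest share of these rises, with 14 of 15 higher and only dnajb9a not called (log2 0.27 ± 0.30, adjusted p = 0.499). The central chaperone gene hspa5 (ENSDARG00000103846, chromosome 5, 2713779 to 2721686 on GRCz11, minus strand) had 461, 531 and 543 CPM at 3 h, against 162, 130 and 144 CPM in uncut larvae. All 3 cut libraries stood well above the uncut ones, and the log2 value was 1.81 ± 0.38 (adjusted p = 0.000708). The gene hyou1, for a large chaperone that works with Hspa5, had 129, 143 and 137 CPM at 3 h, against 35.3, 33.0 and 34.4 CPM in uncut larvae (log2 1.99 ± 0.36, adjusted p = 0.000195). The secreted survival factor gene manf had 37.9, 36.7 and 35.4 CPM at 3 h, against 7.27, 7.10 and 6.65 CPM uncut (log2 2.39 ± 0.43, adjusted p = 0.00018). For both genes the replicates lay close together within each group and the groups did not overlap.

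The co-chaperone gene dnajb9b, whose product helps Hspa5 act on the sensors, showed 8.08, 8.28 and 8.44 CPM at 3 h and 2.09, 1.83 and 1.05 CPM in uncut larvae (log2 2.31 ± 0.37, adjusted p = 4.05e-05). The membrane chaperone gene canx (calnexin), which binds glycoproteins, had 596, 584 and 590 CPM at 3 h, against 298, 275 and 294 CPM uncut (log2 1.03 ± 0.15, adjusted p = 2.09e-05). These groups were also separate in every library. The co-chaperone genes sdf2l1 (log2 1.46 ± 0.27), dnajb11 (log2 1.60 ± 0.30) and dnajc3a (log2 1.25 ± 0.24) also rose, and all of these calls held with each single library left out. Among the disulfide isomerases, pdia6 (log2 1.03 ± 0.33, adjusted p = 0.0159) and pdia4 (log2 1.26 ± 0.45, adjusted p = 0.0286) rose, and pdia3 had log2 0.38 ± 0.17 (adjusted p = 0.0692). The call of pdia6 was lost without replicate 2 at 3 h (log2 0.91), and that of pdia4 without any one of the 6 libraries (log2 1.19 to 1.33).

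Among the sensors and transcription factors 5 of 9 rose. The factor gene xbp1 (ENSDARG00000035622, chromosome 5, 15944411 to 15948920, minus strand) had 331, 299 and 282 CPM at 3 h, against 159, 147 and 156 CPM uncut (log2 0.98 ± 0.18, adjusted p = 0.000173). The stress factor gene atf4b had 366, 293 and 310 CPM at 3 h, against 193, 188 and 199 CPM uncut (log2 0.74 ± 0.15, adjusted p = 0.000297). Neither pair of groups overlapped. The inflammatory and stress factor gene cebpb (log2 1.60 ± 0.36, adjusted p = 0.00136), the sensor gene atf6 (log2 0.46 ± 0.14) and atf4a (log2 0.43 ± 0.12) rose as well, with the call of atf4a lost without replicate 1 at 3 h (log2 0.32). The kinase sensors did not pass: ern1 had 42.1, 53.5 and 50.7 CPM at 3 h, against 66.5, 61.0 and 57.2 CPM uncut (log2 -0.34 ± 0.15, adjusted p = 0.0751). For eif2ak3 the levels were 27.6, 35.4 and 37.3 CPM at 3 h and 39.5, 40.7 and 37.9 CPM uncut (log2 -0.24 ± 0.17, adjusted p = 0.275). In both of these uncalled genes the 3 cut libraries lay below the 3 uncut ones, for eif2ak3 only narrowly (37.3 against 37.9 CPM). How many of all genes were separate in the same way was not counted. The pro-death factor gene ddit3 (Chop) had 46.7, 28.6 and 29.6 CPM at 3 h, against 30.0, 37.2 and 23.5 CPM uncut, with overlap between the groups (log2 0.21 ± 0.22, adjusted p = 0.479).

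**Figure D3:**
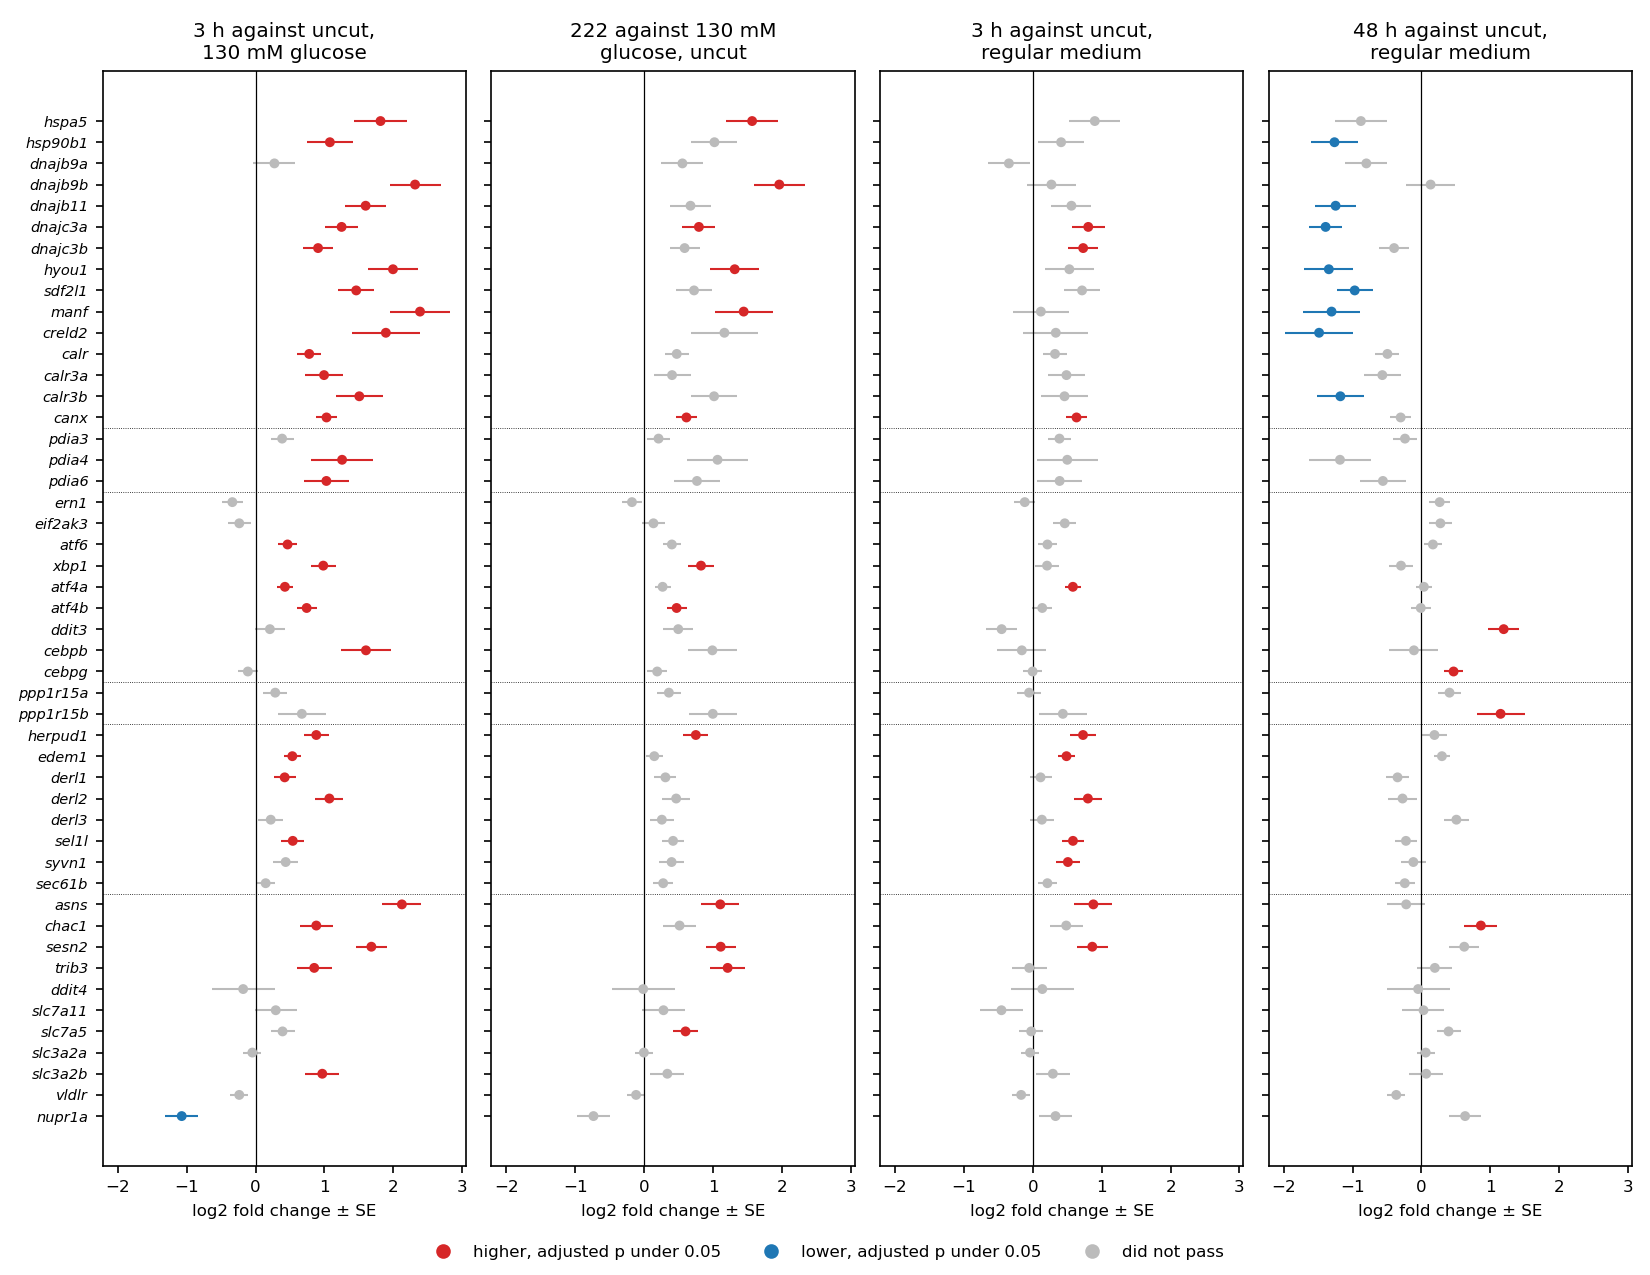
Log2 fold change ± standard error (x axis) of the 48 members (y axis, by role) in 4 comparisons of 3 against 3 libraries, red or blue where the adjusted p of edgeR's test lay under 0.05. The standard error rests on a spread estimated over all 36 libraries. At 3 h in 130 mM most chaperones lie right of 1, while at 48 h in regular medium the called chaperones lie left of 0.

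Of the 8 genes for degradation and translocation, 5 rose at 3 h in 130 mM. These were herpud1 (log2 0.88 ± 0.18) and derl2 (log2 1.07 ± 0.20), both parts of the complex that passes misfolded proteins back to the cytosol, edem1 (log2 0.53 ± 0.12), which marks them for removal, sel1l (log2 0.54 ± 0.17), the partner of the ubiquitin ligase Syvn1, and derl1 (log2 0.42 ± 0.16). The call of derl1 was lost without any one of the 6 libraries (log2 0.40 to 0.46). Neither phosphatase subunit gene passed, with log2 0.28 ± 0.17 for ppp1r15a and 0.67 ± 0.35 for ppp1r15b.

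The amino acid branch moved in both directions, with 5 of 11 members higher and 1 lower. Asparagine synthetase, asns (ENSDARG00000016375, chromosome 19, 25656812 to 25678002, minus strand), had 45.5, 49.5 and 39.8 CPM at 3 h, against 11.8, 11.3 and 7.82 CPM uncut (log2 2.12 ± 0.28, adjusted p = 7.82e-06). The growth inhibitor gene sesn2, a leucine sensor in mammals (ENSDARG00000070012, chromosome 19, 43341115 to 43357457, plus strand), had 18.3, 23.1 and 18.6 CPM at 3 h, against 6.26, 6.01 and 6.45 CPM uncut (log2 1.68 ± 0.22, adjusted p = 6.04e-06). The small stress protein gene nupr1a (ENSDARG00000094300, chromosome 5, 1997765 to 1999488, minus strand) fell to 14.2, 20.9 and 22.7 CPM at 3 h, against 40.8, 38.3 and 42.6 CPM uncut (log2 -1.07 ± 0.24, adjusted p = 0.000969). In each of these genes the groups were fully separate. The other rises were slc3a2b (log2 0.97 ± 0.25), the heavy chain of amino acid exchangers, chac1 (log2 0.88 ± 0.24) and the pseudokinase gene trib3 (log2 0.85 ± 0.26), the last lost without replicate 1 at 3 h (log2 0.63).

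Genes of the same pathways outside the 48 members were counted from wider lists. Of 17 cytosolic tRNA synthetase genes, which load amino acids onto tRNA and are known targets of Atf4, 15 rose at 3 h in 130 mM. The threonine enzyme gene tars1 had log2 1.84 ± 0.20 (adjusted p = 8.08e-07) and the cysteine enzyme gene cars1 log2 1.35 ± 0.16 (adjusted p = 1.08e-06). Of 41 further genes for folding and translocation 33 rose and 1 fell, of 22 for degradation 8 rose and 1 fell, and of 24 for the amino acid response 15 rose, among them psat1 of serine synthesis (log2 1.49 ± 0.22). No omission of a single library changed these counts by 1.5 times or more. At the same time 8 of 12 liver and 5 of 6 intestinal marker genes rose, and summed liver markers were 2840 to 4849 CPM, against 1248 to 2103 CPM in uncut larvae. The 13 acinar markers summed to between 16057 and 21944 CPM at 3 h, against 16525 to 23533 CPM in uncut larvae. Their part in the rise of the members was not tested.

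At the later times in 130 mM little was called. The 15 chaperone genes still summed to 1302 to 1771 CPM at 24 h and 1084 to 1136 CPM at 48 h, against 851 to 955 CPM in uncut larvae. Liver markers summed to 2615 to 5175 CPM at 24 h and 3158 to 3713 CPM at 48 h, against 1248 to 2103 CPM uncut. Their part was not tested. At 24 h 2 members were higher and none lower, where 1.77% of all genes were higher and 0.900% lower, 2.67% in all. These were dnajb9b (6.80, 3.64 and 4.50 CPM at 24 h, against 2.09, 1.83 and 1.05 CPM uncut, log2 1.59 ± 0.37, adjusted p = 0.0187) and hspa5. For hspa5 replicate 1 at 24 h had 617 CPM and the others 252 and 257 CPM, against 162, 130 and 144 CPM uncut (log2 1.37 ± 0.38, adjusted p = 0.047). The call of hspa5 was lost without any one of the 6 libraries, and its log2 value was 0.80 without replicate 1 at 24 h. That of dnajb9b was lost without replicate 2 or 3 of uncut larvae (log2 1.66 and 1.34) or replicate 3 at 24 h (log2 1.65). The count was 1 without replicate 1 of uncut larvae or replicate 2 at 24 h, 0 without replicate 2 or 3 of uncut larvae or replicate 3 at 24 h, and 5 without the 4 libraries apart, where 3744 of all genes were called (538 with all libraries).

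At 48 h in 130 mM edgeR's test called 0 members, with 3.58% of all genes higher and 2.56% lower, 6.14% in all. At an unadjusted p under 0.05 there were 5 members, 3 higher and 2 lower, and DESeq2 called 0 and limma 1. With the dispersion estimated from the compared libraries alone more members were called, as given in the last section, where 6667 of all genes were called. Without the 4 libraries apart 6 were called (4 higher, 2 lower), where 4148 of all genes were called (1236 with all libraries). Mean levels of asns in 130 mM were 10.3 ± 2.18 CPM in uncut larvae, 44.9 ± 4.92 CPM at 3 h, 10.8 ± 2.90 CPM at 24 h and 13.1 ± 0.907 CPM at 48 h (SD, n = 3 each). The asns rise at 3 h was thus no longer seen in the mean level at 24 h.

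**Figure D4:**
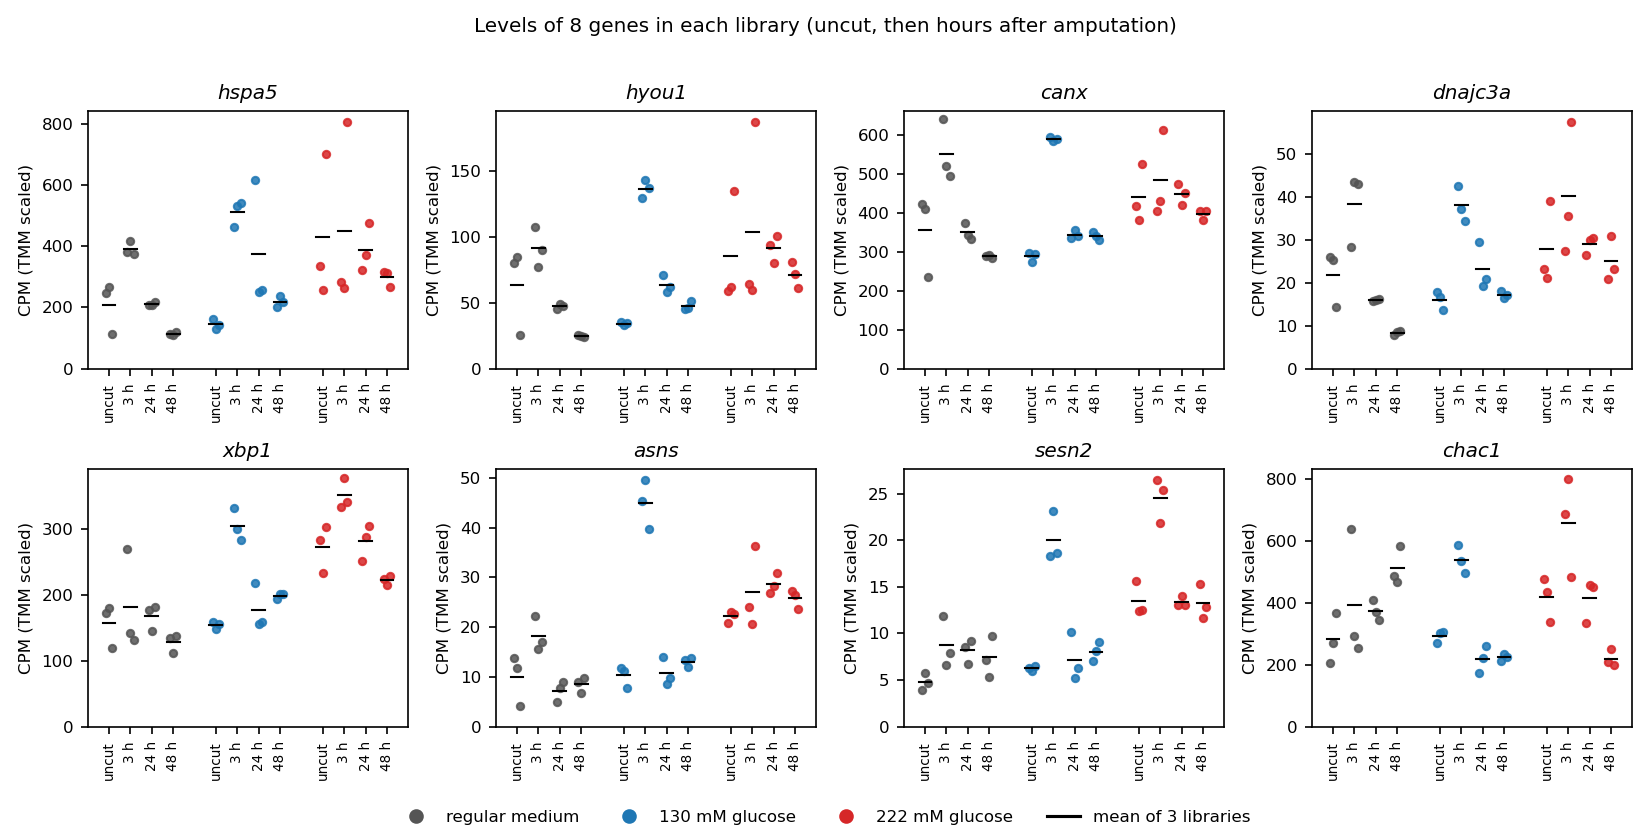
Level (y axis, CPM) of 8 members in each of 36 libraries, by medium (colour) and time (x axis); points are libraries and bars the mean of 3. In 130 mM the 3 h libraries stand above the uncut ones in all 8 genes, and asns and sesn2 are higher in every 222 mM library than in the uncut libraries of regular medium.

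Among uncut larvae, 222 mM glucose against regular medium raised 9 of 48 members and lowered none, where 5.69% of all genes were higher and 6.91% lower, 12.6% in all. Sensors and factors gave 4 of these calls and the amino acid branch 3, while no chaperone passed. The stress gene sesn2 had 15.6, 12.4 and 12.5 CPM in 222 mM, against 3.97, 5.80 and 4.69 CPM in regular medium (log2 1.48 ± 0.22, adjusted p = 6.43e-05). Levels of atf4a were 221, 191 and 234 CPM in 222 mM and 148, 143 and 151 CPM in regular medium (log2 0.55 ± 0.12, adjusted p = 0.00205), and those of xbp1 283, 233 and 302 CPM in 222 mM and 172, 179 and 119 CPM in regular medium (log2 0.80 ± 0.18, adjusted p = 0.00338). All 3 genes were higher in every library of 222 mM. The same held for asns, with 20.9, 23.0 and 22.6 CPM in 222 mM and 13.8, 11.8 and 4.20 CPM in regular medium (log2 1.16 ± 0.28, adjusted p = 0.00553, and 0.80 without replicate 3 of regular medium). The calls of sesn2, asns, atf4a, atf4b (log2 0.65 ± 0.15) and xbp1 held with each single library left out.

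The other 4 calls among uncut larvae of 222 mM and regular medium were each lost in at least 1 single-library omission, although the groups did not overlap in any of the 4 genes. They were trib3 (log2 1.00 ± 0.26), lost without replicate 1 of regular medium (log2 0.89) or of 222 mM (log2 0.87), atf6 (log2 0.48 ± 0.14), lost without replicate 1 or 2 of regular medium (log2 0.43 and 0.48), herpud1 (log2 0.78 ± 0.18), lost without replicate 3 of 222 mM (log2 0.52), and ppp1r15b (log2 1.17 ± 0.35), lost without replicate 1 or 2 of regular medium (log2 0.97 and 0.94) or replicate 2 of 222 mM (log2 1.03). Of the tRNA synthetase genes 14 of 17 were higher and none lower, with iars1, the isoleucine enzyme, at log2 1.18 ± 0.16 (adjusted p = 1.64e-05). In the same contrast 5 of 13 acinar markers were higher and 4 of 7 notochord and cartilage markers lower, and their part was not tested. Without the 4 libraries apart 17 members were called, 13 higher and 4 lower, where 5862 of all genes were called (2534 with all libraries). With the dispersion estimated from the 6 compared libraries alone no member was called, where 22 of all genes were called (2534 with all libraries).

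With 222 mM set against 130 mM in uncut larvae, 13 members were higher and none lower (4.65% and 2.98% of all genes, 7.63% in all), and the median log2 value was 0.50, against 0.00 over all genes. Here chaperones gave 6 calls, the amino acid branch 4, sensors and factors 2 and degradation 1. At the same time 6 of 12 liver markers were higher, with summed levels of 2935 to 5139 CPM in 222 mM and 1248 to 2103 CPM in 130 mM, and notochord and cartilage markers summed to 389 to 541 CPM in 222 mM and 667 to 734 CPM in 130 mM. Their part was not tested. The chaperone rises leaned on replicate 3 of 222 mM: hspa5 had 336, 257 and 701 CPM in 222 mM, against 162, 130 and 144 CPM in 130 mM (log2 1.57 ± 0.38, adjusted p = 0.011, and 1.03, no longer called, without that library). The groups did not overlap, but the call was also lost without replicate 2 or 3 of 130 mM (log2 1.49 and 1.56). Held by every single-library omission were dnajb9b (3.57, 5.49 and 10.3 CPM in 222 mM, against 2.09, 1.83 and 1.05 CPM in 130 mM, log2 1.96 ± 0.37), sesn2 (log2 1.11 ± 0.22), trib3 (128, 118 and 80.0 CPM in 222 mM, against 45.3, 47.1 and 48.2 CPM in 130 mM, log2 1.21 ± 0.26) and xbp1 (log2 0.82 ± 0.18). The number of members called was 8, 5 and 6 without replicates 1, 2 and 3 of 130 mM, 6 without replicate 3 of 222 mM, and 15 (14 higher, 1 lower) without the 4 libraries apart, where 2721 of all genes were called (1535 with all libraries). The chaperone count was 3, 1 and 2 without replicates 1, 2 and 3 of 130 mM and 1 without replicate 3 of 222 mM, and the amino acid count 2 without replicate 3 of 130 mM. Without replicate 3 of 222 mM the log2 values of hyou1, manf and dnajc3a were 0.82, 0.82 and 0.47, none called, where they had been 1.31 ± 0.36, 1.44 ± 0.42 and 0.79 ± 0.24.

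In uncut larvae of 130 mM against regular medium, 2 members were lower and none higher (1.87% and 0.760% of all genes, 2.63% in all). These were dnajb9b (2.09, 1.83 and 1.05 CPM in 130 mM, against 4.54, 4.35 and 3.82 CPM in regular medium, log2 -1.35 ± 0.36, adjusted p = 0.0401) and manf (7.27, 7.10 and 6.65 CPM in 130 mM, against 25.4, 29.0 and 6.67 CPM in regular medium, log2 -1.54 ± 0.42, adjusted p = 0.0467). The groups of manf overlapped because replicate 3 of regular medium was as low as 130 mM. No member was called without replicate 1 or 2 of regular medium or without any one of the 130 mM libraries. Without replicate 3 of regular medium 14 were called (1 higher, 13 lower), where the number of all genes was not counted. Without the 4 libraries apart 19 were called (2 higher, 17 lower), where 5789 of all genes were called (529 with all libraries). All 15 chaperones had a log2 value below 0 (-1.54 to -0.30), where the median of all genes tested was -0.02. They summed to 851 to 955 CPM in 130 mM, against 749, 1679 and 1681 CPM in regular medium. Replicate 3 of regular medium thus lay below every 130 mM library.

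In regular medium 11 members rose and none fell 3 h after amputation, where 8.04% of all genes were higher and 7.06% lower, 15.1% in all. Degradation genes gave 5 of these, chaperones 3, the amino acid branch 2 and the factors 1. The gene herpud1, a scaffold of the degradation complex (ENSDARG00000024314, chromosome 18, 17600570 to 17611849, plus strand), had 61.5, 69.9 and 70.8 CPM at 3 h, against 33.0, 42.5 and 46.5 CPM uncut (log2 0.73 ± 0.18, adjusted p = 0.00751). Levels of atf4a were 254, 214 and 193 CPM at 3 h and 148, 143 and 151 CPM uncut (log2 0.58 ± 0.12, adjusted p = 0.00139), and those of canx 641, 520 and 495 CPM at 3 h and 423, 410 and 234 CPM uncut (log2 0.63 ± 0.15, adjusted p = 0.00596). In all 3 genes the groups were separate, and their calls held with each library left out, canx at log2 0.41 without replicate 3 of uncut larvae. The chaperone gene hspa5 had 381, 417 and 376 CPM at 3 h, against 248, 268 and 114 CPM uncut, also without overlap, but it did not pass (log2 0.90 ± 0.37, adjusted p = 0.103).

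Further calls at 3 h in regular medium were edem1 (log2 0.49 ± 0.12) and sel1l (log2 0.58 ± 0.17), both lost without replicate 3 of uncut larvae (log2 0.37 and 0.44), and sesn2 (log2 0.86 ± 0.22), lost without replicate 1 at 3 h (log2 0.59). Asparagine synthetase asns (log2 0.88 ± 0.28) was lost without replicate 3 of uncut larvae (log2 0.51) or replicate 1 at 3 h (log2 0.71). The count of members was 5 without replicate 3 of uncut larvae, where degradation and chaperones kept 1 call each. The chaperone count was also 1 without replicate 2 or 3 at 3 h. Without the 4 libraries apart 14 members were called (11 higher, 3 lower), where 4536 of all genes were called (3038 with all libraries). Of the tRNA synthetase genes 9 of 17 rose, and 1 without replicate 1 at 3 h, or 5 without replicate 1 or 3 of uncut larvae.

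At 24 h in regular medium 3 members were higher and 1 lower (5.54% and 4.24% of all genes, 9.78% in all). The share of members called was near that of all genes. The degradation gene edem1 (ENSDARG00000025094, chromosome 6, 42932757 to 42949184, minus strand) had 76.4, 82.8 and 77.7 CPM at 24 h, against 55.7, 54.1 and 41.8 CPM uncut (log2 0.64 ± 0.12, adjusted p = 0.00112), and its call held in each single-library omission. The calls of sesn2 (log2 0.76 ± 0.22), nupr1a (log2 0.74 ± 0.24) and the calcium-binding chaperone gene calr (log2 -0.62 ± 0.18) did not, with log2 0.64, 0.55 and -0.60 without replicate 1 of uncut larvae, where none of these 3 passed. Called members numbered 1, 2 and 10 when replicates 1, 2 and 3 of uncut larvae were left out in turn, 1 without replicate 1 or 3 at 24 h, and 18 (9 higher, 9 lower) without the 4 libraries apart, where 5423 of all genes were called (1968 with all libraries).

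At 48 h in regular medium 8 of 15 chaperones were lower than in uncut larvae, none was higher and 7 did not pass. The 15 genes summed to 784 to 821 CPM at 48 h, against 749, 1679 and 1681 CPM in uncut larvae, so that replicate 3 of uncut larvae lay below the cut libraries. Over all 48 members 4 were higher and 8 lower, where 7.09% of all genes were higher and 7.45% lower, 14.5% in all. The co-chaperone gene dnajc3a, whose product also inhibits eIF2 kinases, fell to 7.76, 8.59 and 8.72 CPM at 48 h, against 26.1, 25.4 and 14.3 CPM uncut (log2 -1.39 ± 0.24, adjusted p = 0.000386). It was called without each single library. For dnajb11 there were 17.5, 16.9 and 14.6 CPM at 48 h and 46.6, 49.2 and 20.4 CPM uncut (log2 -1.25 ± 0.29, adjusted p = 0.00606, and -1.04, not called, without replicate 2 of uncut larvae). The large chaperone gene hyou1 had 25.9, 25.0 and 24.0 CPM at 48 h, against 79.8, 84.8 and 25.4 CPM uncut, where replicate 3 of uncut larvae was as low as the cut libraries (log2 -1.34 ± 0.36, adjusted p = 0.0137). Its call, like that of hsp90b1 (log2 -1.26 ± 0.34), was lost without replicate 1 of uncut larvae (log2 -1.14 and -1.04), replicate 2 of uncut larvae (log2 -1.08 and -1.07) or replicate 3 at 48 h (log2 -1.32 and -1.23). The chaperone hspa5 itself did not pass (log2 -0.88 ± 0.37, adjusted p = 0.111).

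The members that rose at 48 h in regular medium were ddit3, cebpg, chac1 and ppp1r15b, from 3 different roles. The factor gene ddit3 (ENSDARG00000059836, chromosome 6, 58915889 to 58919086, plus strand) had 89.0, 78.0 and 102 CPM at 48 h, against 28.4, 33.9 and 55.2 CPM uncut (log2 1.19 ± 0.22, adjusted p = 0.000727). Every 48 h library was above every uncut library, and the call held in each single-library omission. Levels of chac1 were 486, 469 and 585 CPM at 48 h and 206, 272 and 369 CPM uncut (log2 0.86 ± 0.24, adjusted p = 0.0169), with the call lost without replicate 1 or 2 of uncut larvae (log2 0.68 and 0.84) or replicate 3 at 48 h (log2 0.76). Calls of cebpg (log2 0.47 ± 0.14) and ppp1r15b (log2 1.15 ± 0.35) were lost without replicate 1 or 2 of uncut larvae (log2 0.26 and 0.40 for cebpg, 0.95 and 0.92 for ppp1r15b) or replicate 1 or 3 at 48 h (log2 0.45 and 0.40, and 1.13 and 0.84). Without replicate 3 of uncut larvae cebpg had log2 0.79.

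The number of members called at 48 h in regular medium was 3, 2 and 23 without replicates 1, 2 and 3 of uncut larvae, 6 and 4 without replicates 1 and 3 at 48 h, and 33 (11 higher, 22 lower) without the 4 libraries apart, where 7594 of all genes were called (2925 with all libraries). For the chaperones it was 2, 1 and 14 without replicates 1, 2 and 3 of uncut larvae and 4 and 3 without replicates 1 and 3 at 48 h, lower in each case. The number of all genes called without these single libraries was not counted. All 13 acinar marker genes fell at the same time, with a summed level of 6713 to 8245 CPM at 48 h, against 11803 to 18967 CPM in uncut larvae. Liver markers summed to 1764 to 2224 CPM at 48 h, against 1178, 4695 and 5824 CPM in uncut larvae. Intestinal markers summed to 3128 to 3386 CPM at 48 h, against 3040, 5493 and 5549 CPM uncut. Skeletal muscle markers went the other way, with 27320 to 31922 CPM at 48 h, against 16111 to 27914 CPM uncut. Whether the change in any of these tissues carried that of the chaperones was not tested.

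After amputation in 222 mM glucose few members were called. At 3 h 1 member was higher and none lower, where 0.512% of all genes were higher and 0.383% lower, 0.895% in all. This was sesn2, with 26.5, 21.8 and 25.4 CPM at 3 h and 15.6, 12.4 and 12.5 CPM uncut (log2 0.87 ± 0.22, adjusted p = 0.0488). The groups did not overlap, but the call was lost without any one library except replicate 3 of uncut larvae (log2 0.81 to 0.98). The chaperone hspa5 had 285, 263 and 807 CPM at 3 h, against 336, 257 and 701 CPM uncut, so that replicate 3 of each group carried the spread (log2 0.07 ± 0.37, adjusted p = 0.958). No member was called without replicate 1 or 2 of either group, while 6 were without replicate 3 of uncut larvae and 5 without replicate 3 at 3 h. Without the 4 libraries apart there were 16, 13 higher and 3 lower, where 3598 of all genes were called (180 with all libraries).

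At 24 h in 222 mM 1 member was lower, where 1.81% of all genes were higher and 2.79% lower, 4.60% in all. It was slc3a2a, a copy of the exchanger heavy chain gene, with 59.8, 84.2 and 77.4 CPM at 24 h and 112, 101 and 98.0 CPM uncut (log2 -0.49 ± 0.13, adjusted p = 0.0242). The count was 0 without replicate 1 or 2 of uncut larvae or replicate 1 or 3 at 24 h, 5 without replicate 3 of uncut larvae, 2 without replicate 2 at 24 h and 10 (4 higher, 6 lower) without the 4 libraries apart, where 3625 of all genes were called (926 with all libraries). At 48 h 6 members fell and none rose (8.74% and 8.41% of all genes, 17.2% in all). The share of members called was thus not above that of all genes. The pseudokinase gene trib3 fell to 47.1, 52.1 and 42.2 CPM at 48 h, against 128, 118 and 80.0 CPM uncut (log2 -1.20 ± 0.26, adjusted p = 0.00192), and chac1 to 209, 252 and 199 CPM at 48 h, against 479, 435 and 340 CPM uncut (log2 -0.93 ± 0.24, adjusted p = 0.00849). Both genes were lower in all 3 cut libraries and held in each single-library omission. The other falls were slc3a2b (log2 -0.87 ± 0.25), atf4a (log2 -0.42 ± 0.12), sdf2l1 (log2 -0.79 ± 0.26) and derl2 (log2 -0.59 ± 0.20). Each of these 4 was lost without at least 1 library. For atf4a, sdf2l1 and derl2 one was replicate 3 of uncut larvae (log2 -0.36, -0.54 and -0.34), and for slc3a2b it was replicate 1 of uncut larvae (log2 -0.82) or replicate 3 at 48 h (log2 -0.79). Of 13 acinar markers 10 fell at 48 h, with summed levels of 13845 to 15137 CPM, against 21863 to 26013 CPM in uncut larvae, and 4 of 12 liver markers fell. Their part was not tested. The count of members was 3 without replicate 3 at 48 h and 10 (1 higher, 9 lower) without the 4 libraries apart, where 4961 of all genes were called (3451 with all libraries).

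**Figure D5:**
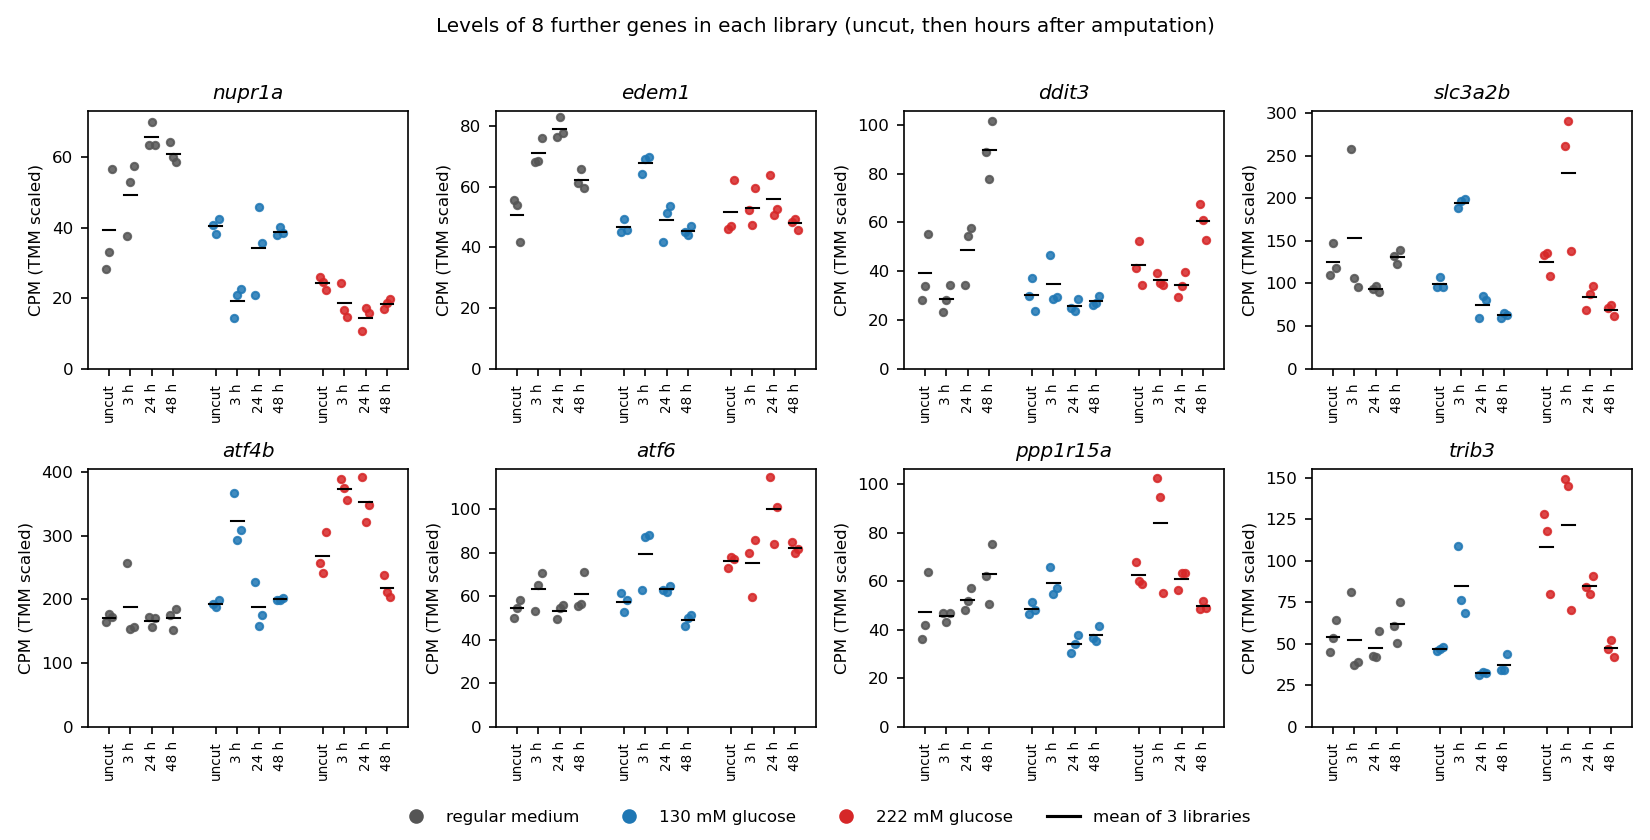
Level (y axis, CPM) of 8 further members in each of 36 libraries, by medium (colour) and time (x axis); points are libraries and bars the mean of 3. In nupr1a all 222 mM libraries after amputation lie below those of regular medium, and in ddit3 the 48 h libraries of regular medium stand above all others.

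The larvae were then compared between media at the same hour after amputation. At 3 h, 222 mM against regular medium, 9 members were higher and 4 lower (11.0% and 12.9% of all genes, 23.9% in all). The share of members called was thus near that of all genes, and the share of lower members was below it. The higher members were 4 sensors and factors, 3 of the amino acid branch and both phosphatase subunits. Levels of sesn2 were 26.5, 21.8 and 25.4 CPM in 222 mM and 11.8, 6.63 and 7.85 CPM in regular medium (log2 1.49 ± 0.22, adjusted p = 2.01e-05), and those of atf4b 389, 375 and 357 CPM in 222 mM and 256, 153 and 156 CPM in regular medium (log2 0.99 ± 0.15, adjusted p = 2.02e-05). The phosphatase subunit gene ppp1r15a (Gadd34), which reverses the block of translation, had 103, 94.9 and 55.1 CPM in 222 mM, against 47.1, 43.0 and 46.7 CPM in regular medium (log2 0.89 ± 0.17, adjusted p = 0.000591). In these genes every 222 mM library was the higher. Lower were nupr1a (log2 -1.41 ± 0.24, adjusted p = 0.000131), calr (log2 -0.84 ± 0.18), dnajc3b and edem1, the last 2 lost without replicate 3 of regular medium (log2 -0.66 and -0.37) or replicate 2 of 222 mM (log2 -0.53 and -0.34). The call of dnajc3b was also lost without replicate 2 of regular medium (log2 -0.66) or replicate 1 of 222 mM (log2 -0.57), and its log2 value was -0.74 ± 0.22, and -1.20 without replicate 3 of 222 mM.

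Several values at 3 h, 222 mM against regular medium, moved with replicate 1 of regular medium. The log2 value of xbp1 was 0.96 ± 0.18 and 1.36 without it, that of trib3 1.22 ± 0.26 and 1.69 without it, and that of cebpb 1.58 ± 0.36 and 2.32 without it. All 3 were called either way, although the groups of trib3 and cebpb overlapped. Replicate 3 of 222 mM had 70.5 and 92.8 CPM, and replicate 1 of regular medium 81.1 and 110 CPM. The groups of chac1 overlapped as well (483 and 638 CPM in the same 2 libraries). The call of chac1 (log2 0.74 ± 0.24, and 1.27 without replicate 1 of regular medium) was lost without replicate 2 or 3 of regular medium (log2 0.56 and 0.50) or replicate 1 or 2 of 222 mM (log2 0.70 and 0.57). That of ppp1r15b (log2 0.96 ± 0.35) was lost without any one library except replicate 3 of regular medium (log2 0.64 to 1.05). In the same contrast 6 of 13 acinar markers were higher, with summed levels of 21737 to 31257 CPM in 222 mM and 17377 to 21712 CPM in regular medium. Of the notochord and cartilage markers 4 of 7 were lower (424 to 715 CPM in 222 mM and 1099 to 2618 CPM in regular medium), and of the intestinal markers 3 of 6 (2966 to 4320 CPM in 222 mM and 4371 to 6915 CPM in regular medium). Skeletal muscle markers summed to 17553 to 22905 CPM in 222 mM and 24655 to 34832 CPM in regular medium. Their part was not tested. In all, 21 members were called without replicate 3 of 222 mM (9 higher, 12 lower), where the number of all genes was not counted. Without the 4 libraries apart 20 members were called (13 higher, 7 lower), where 7064 of all genes were called (4800 with all libraries).

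At 3 h in 130 mM against regular medium 4 members were higher and 2 lower (4.54% and 4.96% of all genes, 9.50% in all). Here too the share of members called was near that of all genes. Higher were asns (45.5, 49.5 and 39.8 CPM in 130 mM, against 22.2, 15.5 and 17.0 CPM in regular medium, log2 1.30 ± 0.28, adjusted p = 0.00417), sesn2 (log2 1.19 ± 0.22), atf4b (log2 0.78 ± 0.15) and xbp1 (log2 0.75 ± 0.18). Lower were nupr1a (14.2, 20.9 and 22.7 CPM in 130 mM, against 37.5, 53.0 and 57.6 CPM in regular medium, log2 -1.36 ± 0.24, adjusted p = 0.00101) and eif2ak3 (27.6, 35.4 and 37.3 CPM in 130 mM, against 33.2, 63.7 and 61.5 CPM in regular medium, log2 -0.66 ± 0.17). The groups of nupr1a and asns were separate and those of eif2ak3 overlapped. The calls of xbp1 and eif2ak3 were lost without replicate 2 of regular medium (log2 0.61 and -0.50) or replicate 3 (log2 0.57 and -0.54), and that of eif2ak3 also without replicate 1 of 130 mM (log2 -0.54). Without replicate 1 of regular medium 10 members were called (8 higher, 2 lower), with xbp1 at log2 1.15, and without the 4 libraries apart 12 (10 higher, 2 lower), where 6405 of all genes were called (1911 with all libraries). No chaperone passed between these groups, although 14 had risen against uncut larvae in 130 mM and 3 in regular medium.

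At 24 h, 222 mM against regular medium, 10 members were higher and 7 lower (15.7% and 18.4% of all genes, 34.1% in all). The share of members was thus near that of all genes. The deepest fall was that of nupr1a, with 10.7, 17.1 and 15.7 CPM in 222 mM and 63.4, 70.1 and 63.4 CPM in regular medium (log2 -2.18 ± 0.25, adjusted p = 1.37e-07). Asparagine synthetase asns had 27.0, 28.3 and 30.8 CPM in 222 mM, against 4.93, 7.70 and 8.99 CPM in regular medium (log2 1.99 ± 0.28, adjusted p = 4.65e-06). The sensor gene atf6 (ENSDARG00000012656, chromosome 20, 33809434 to 33909872, minus strand) had 115, 84.1 and 101 CPM in 222 mM, against 49.3, 54.6 and 55.9 CPM in regular medium (log2 0.91 ± 0.14, adjusted p = 7.69e-06). All 3 genes were separate between the groups, as was atf4b (log2 1.09 ± 0.15, adjusted p = 1.64e-06). Lower as well were the exchanger gene slc3a2a (log2 -0.70 ± 0.13), the degradation gene edem1 (log2 -0.50 ± 0.12) and the isomerase gene pdia3 (log2 -0.57 ± 0.17), while dnajc3a (log2 0.85 ± 0.24), herpud1 (log2 0.64 ± 0.18) and xbp1 (log2 0.74 ± 0.18) were higher. All of these held in each single-library omission, and 26 members (17 higher, 9 lower) were called without the 4 libraries apart, where 9338 of all genes were called (6862 with all libraries). Of the tRNA synthetase genes 15 of 17 were higher and none lower, yars1 with log2 1.17 ± 0.16 and tars1 with log2 1.46 ± 0.20. At the same time 5 of 7 notochord and cartilage markers and 5 of 6 intestinal markers were lower. Skeletal muscle markers summed to 14152 to 16090 CPM in 222 mM and 26576 to 33100 CPM in regular medium. Liver markers summed to 2811 to 3108 CPM in 222 mM and 3341 to 4168 CPM in regular medium. The acinar sums overlapped (19838 to 21149 CPM in 222 mM and 16020 to 23947 CPM in regular medium). The part of these tissues was not tested.

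At 24 h in 130 mM against regular medium 1 member was higher and 5 lower (2.34% and 4.69% of all genes, 7.03% in all). The degradation gene edem1 had 41.8, 51.3 and 53.6 CPM in 130 mM, against 76.4, 82.8 and 77.7 CPM in regular medium (log2 -0.69 ± 0.12, adjusted p = 0.000672), without overlap and in each single-library omission. The falls of ddit3 (log2 -0.92 ± 0.22), nupr1a (log2 -0.94 ± 0.24), chac1 (log2 -0.78 ± 0.24) and ppp1r15a (log2 -0.62 ± 0.17) were each lost without replicate 1 of 130 mM (log2 -0.89, -0.68, -0.63 and -0.54), and the rise of calr (log2 0.58 ± 0.18) without replicate 1 of regular medium (log2 0.52). The count of members was 1 and 2 without replicates 2 and 3 of regular medium, 2 and 3 without replicates 1 and 2 of 130 mM, and 9 (2 higher, 7 lower) without the 4 libraries apart, where 2228 of all genes were called (1415 with all libraries).

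At 48 h, 222 mM against regular medium, 11 members were higher and 4 lower (7.05% and 9.48% of all genes, 16.5% in all). Chaperones made 7 of the rises and none fell. The chaperone hspa5 had 318, 313 and 266 CPM in 222 mM, against 114, 110 and 118 CPM in regular medium (log2 1.39 ± 0.38, adjusted p = 0.012), and dnajc3a 21.0, 30.8 and 23.3 CPM in 222 mM, against 7.76, 8.59 and 8.72 CPM in regular medium (log2 1.58 ± 0.25, adjusted p = 5.12e-05). With hyou1 (log2 1.51 ± 0.36) and dnajb11 (log2 1.15 ± 0.29) these calls held in each single-library omission, whereas canx, dnajb9a and hsp90b1 lost theirs in at least 5 of the 6 omissions, and the number of called chaperones was 4 without any single library except replicate 1 of regular medium. Levels of nupr1a were 16.8, 18.6 and 19.9 CPM in 222 mM and 64.4, 60.0 and 58.7 CPM in regular medium (log2 -1.73 ± 0.24, adjusted p = 1.41e-05), and those of chac1 209, 252 and 199 CPM in 222 mM and 486, 469 and 585 CPM in regular medium (log2 -1.22 ± 0.24, adjusted p = 0.000843). In both genes the groups lay far apart. Asparagine synthetase asns was again higher (27.4, 26.5 and 23.7 CPM in 222 mM, against 8.96, 6.78 and 9.78 CPM in regular medium, log2 1.60 ± 0.28, adjusted p = 0.000222), as was xbp1 (log2 0.80 ± 0.18). The number of members called was 9 without replicate 2 of regular medium or replicate 1 or 3 of 222 mM, and 26 (17 higher, 9 lower) without the 4 libraries apart, where 5900 of all genes were called (3325 with all libraries).

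In that contrast 15 of 17 tRNA synthetase genes were higher and none lower. Of 13 acinar markers 12 were higher, with summed levels of 13845 to 15137 CPM in 222 mM and 6713 to 8245 CPM in regular medium. Skeletal muscle markers summed to 20783 to 25458 CPM in 222 mM and 27320 to 31922 CPM in regular medium. Intestinal markers summed to 2174 to 2292 CPM in 222 mM and 3128 to 3386 CPM in regular medium. Whether these changes moved the chaperones was not tested.

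At 48 h in 130 mM against regular medium 5 members were higher and 8 lower (8.98% and 10.9% of all genes, 19.9% in all). The factor gene ddit3 had 26.2, 27.1 and 29.9 CPM in 130 mM, against 89.0, 78.0 and 102 CPM in regular medium (log2 -1.69 ± 0.23, adjusted p = 7.38e-06), and slc3a2b had 59.9, 65.7 and 63.1 CPM in 130 mM, against 132, 123 and 139 CPM in regular medium (log2 -1.06 ± 0.25, adjusted p = 0.00357). Both were fully separate. Also lower in each single-library omission were chac1 (log2 -1.20 ± 0.24, adjusted p = 0.000997), ppp1r15a (log2 -0.73 ± 0.17), the amino acid exchanger gene slc7a5 (log2 -0.69 ± 0.17) and edem1 (log2 -0.45 ± 0.12), and higher was dnajc3a (17.2 ± 0.920 CPM in 130 mM and 8.36 ± 0.523 CPM in regular medium, SD, n = 3 each, log2 1.05 ± 0.24). No gene of the amino acid branch was higher and 4 were lower. The count was 9 to 11 without single libraries and 25 (12 higher, 13 lower) without the 4 libraries apart, where 6877 of all genes were called (3999 with all libraries). Acinar markers were higher for all 13 genes (20379 to 22413 CPM in 130 mM and 6713 to 8245 CPM in regular medium), as were 12 of 17 tRNA synthetase genes, with none lower.

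Whether the amputation response itself differed between media was tested over the 3 times together with F tests. Between 130 mM and regular medium the responses of 16 members differed, where 17.9% of all genes did. Among them were ddit3 (adjusted p = 0.000764), chac1 (adjusted p = 0.00454) and ppp1r15a (adjusted p = 0.00504). For ddit3 the log2 values at 3, 24 and 48 h were 0.21, -0.23 and -0.12 in 130 mM and -0.45, 0.32 and 1.19 in regular medium. Between 222 mM and regular medium 11 differed, where 15.3% of all genes did, with chac1 (adjusted p = 0.00104), calr (adjusted p = 0.00474) and ppp1r15a (adjusted p = 0.00782) first. For chac1 the log2 values were 0.65, -0.01 and -0.93 in 222 mM and 0.49, 0.41 and 0.86 in regular medium. Between 222 and 130 mM 13 differed, where 24.4% of all genes did, led by asns (adjusted p = 0.00117), calr (adjusted p = 0.0012) and dnajb9b (adjusted p = 0.00595). For asns the log2 values were 0.29, 0.37 and 0.22 in 222 mM and 2.12, 0.07 and 0.34 in 130 mM. As shares of the 48 members these numbers were 33.3%, 22.9% and 27.1% in the order of the tests. Between 222 and 130 mM the share of members was thus near that of all genes.

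The numbers of members in the F tests moved with single libraries, for which those of all genes were not counted. For 130 mM against regular medium they were 30 without replicate 3 of uncut regular medium, 9 without replicate 2 at 3 h in regular medium, and 10 without replicate 2 of uncut regular medium, replicate 1 or 3 at 48 h in regular medium, replicate 1 at 3 h in 130 mM or replicate 2 at 48 h in 130 mM. For 222 mM against regular medium they were 20 without replicate 3 of uncut regular medium, 26 without replicate 3 at 3 h in 222 mM, 6 without replicate 3 at 48 h in regular medium, and 7 without replicate 1 at 3 h or replicate 3 at 48 h in 222 mM. For 222 against 130 mM they were 22 without replicate 2 of uncut 222 mM and 28 without replicate 3 at 3 h in 222 mM. Without the 4 libraries apart they were 36, 34 and 31 in the order of the tests, where 11179, 8724 and 9235 of all genes were called (3605, 3082 and 4901 with all libraries).

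Over the 18 comparisons of 2 groups 46 of 48 members were called at least once. The same share over all genes tested was not counted, and single comparisons called between 0.895% and 38.2% of them. The members never called were ern1 and ddit4. The sensor gene ern1 stayed between log2 -0.40 and 0.37, with mean levels between 41.2 ± 1.45 CPM (24 h in 222 mM) and 69.8 ± 8.09 CPM (48 h in regular medium; SD, n = 3). The growth inhibitor gene ddit4 ranged more widely, between log2 -1.09 and 1.01, with libraries of one group far apart, as at 24 h in 130 mM, where replicate 1 had 9.09 CPM and replicate 2 had 33.8 CPM. The other kinase gene eif2ak3 and the transporter gene slc7a11 were called once each, lower at 3 h in 130 mM and at 24 h in 222 mM, both against regular medium.

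Paired gene copies did not always move alike. At 3 h in 130 mM slc3a2b rose while slc3a2a had log2 -0.05 ± 0.13 (adjusted p = 0.801), and dnajb9b rose while dnajb9a had log2 0.27 ± 0.30. Both copies of dnajc3 and of calr3 rose there, dnajc3a with log2 1.25 and dnajc3b with 0.91, and calr3a with log2 0.99 and calr3b with 1.51. In uncut larvae of 222 mM against regular medium, atf4a and atf4b rose by log2 0.55 and 0.65. The difference between copies was not tested. Reads of similar copies may be split between them by the counting.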

How the data were processed

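RNA of whole larvae was sequenced as paired ends on an Illumina NovaSeq, per the labels' protocols. HISAT, StringTie, edgeR and the GRCz11 build are named in the submitters' processing notes, without versions or order; the sources used here name neither the counting tool nor its strand setting. The authors deposited 1 table with raw read counts and FPKM values per gene for 36 libraries. FPKM values, which the authors scaled by length and depth, were used for the filter, for levels between genes and for 1 alternative.

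Counts were tested with edgeR 4.0.16 (R 4.3.3): TMM scaling, a filter of 1 FPKM or more in 3 or more libraries, 1 mean per group over all 36 libraries, robust quasi-likelihood tests for 18 comparisons of 2 groups and 3 F tests, with Benjamini-Hochberg adjustment over 20120 genes and a threshold of 0.05. Each standard error was obtained by dividing the log2 value by the root of F. Alternatives were DESeq2 1.42.0, limma 3.58.1 on log2(FPKM + 1), other scaling, no filter, a replicate block, only the libraries compared, the fold and unadjusted p criterion of the series text, single libraries left out and the 4 libraries apart left out. The members and lists were chosen with earlier results of these data known. The alternatives for the role groups and wider lists were added after seeing the data.

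Genes described in full were up to 8 members of smallest adjusted p per comparison, spread over roles, plus hspa5, xbp1, atf4a, ddit3, asns, ern1, eif2ak3 and atf6. Other members were named after their values were seen. The wider lists held 130 symbols, of which 124 were matched, 18 of them through the name table, and the marker lists 50, of which 47 were matched. The planned search of promoters was not run. The result of 1 gene of the wider lists is not reported here. In data simulated for 222 mM against 130 mM uncut larvae over 20120 genes, 9 of 50 genes changed 1.5-fold, 42 of 50 changed 2-fold and 49 of 50 changed 4-fold were called, with 8 false calls. Of genes lowered to 0.5-fold, 37 of 50 were called. Simulated replicates of a group shared 1 mean, so libraries standing apart were not represented. The common biological coefficient of variation was 0.203. No replicates agreed within counting noise (lowest chi-square per degree of freedom 12.24 over 36 pairs). Replicate numbers were taken to pair samples where the deviations of every pair correlated by more than 0.1, which held at 3 h against uncut larvae in 222 mM (0.174, 0.152 and 0.389) and in no other comparison of 2 groups.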

Additional observations from a re-analysis of the deposited data

Results flagged for a closer look

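The amputation response over 3, 24 and 48 h differed between media, by edgeR's F test of the difference itself, in 16 members between 130 mM and regular medium, 11 between 222 mM and regular medium and 13 between 222 and 130 mM. The shares of all genes were 17.9%, 15.3% and 24.4%, and those of the 48 members 33.3%, 22.9% and 27.1%, in the order of the tests. In the third test the share of members was thus near that of all genes. The smallest adjusted p of the first test belonged to ddit3 (0.000764), chac1 (0.00454) and ppp1r15a (0.00504). In the second test they belonged to chac1 (0.00104), calr (0.00474) and ppp1r15a (0.00782), and in the third to asns (0.00117), calr (0.0012) and dnajb9b (0.00595). The first and second test share the uncut and cut larvae of regular medium.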

How the results depend on the processing

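Over 864 log2 fold changes of members and 11232 values under alternatives, 10427 kept their side of the threshold. With the same sign, 395 lost and 406 gained a call. The 10427 include values that changed sign without a call in either fit, and these were not counted apart. In 4 further values, none called in the reported test, the sign changed and the alternative called the member. All 4 were seen without the 4 libraries apart: pdia3 (-0.39) in uncut larvae of 222 mM against regular medium, and xbp1 (-0.36), cebpg (0.31) and ddit4 (-0.87) at 3 h in regular medium. The cause was not tested.

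The following are numbers of members called, with the value of the reported test first. For single libraries left out, the number of all genes called was not counted. In 130 mM against regular medium, uncut, the reported 2 became 1 with median ratio scaling or the replicate block, 0 with no filter, limma or only the libraries compared, 19 without the 4 libraries apart, and 0 to 14 without single libraries. In 222 mM against regular medium, uncut, 9 became 17 without the 4 libraries, 0 with only the libraries compared, 5 by the criterion of the series text and 7 to 12 without single libraries. In 222 against 130 mM, uncut, 13 became 8 with only the libraries compared and 5 to 14 without single libraries. With only the libraries compared, 21, 22 and 733 of all genes were called, in the order given (529, 2534 and 1535 in the reported test).

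In regular medium at 3 h, 11 became 0 with only the libraries compared or the series criterion, and 5 to 12 without single libraries. At 24 h, 4 became 2 with limma, 18 without the 4 libraries, 0 with only the libraries compared or the series criterion, and 1 to 10 without single libraries. At 48 h, 12 became 33 without the 4 libraries, 1 with only the libraries compared and 2 to 23 without single libraries. In 130 mM at 3 h, 32 became 18 by the series criterion and 29 to 30 without single libraries. At 24 h, 2 became 1 with median ratio scaling, no filter, limma or the replicate block, 5 without the 4 libraries, 9 with only the libraries compared, 4 by the series criterion and 0 to 2 without single libraries. At 48 h, 0 became 1 with limma, 6 without the 4 libraries and 18 with only the libraries compared. Genes called over all with only the libraries compared numbered 3, 355 and 644 at 3, 24 and 48 h in regular medium. The reported test called 3038, 1968 and 2925 there. In 130 mM they numbered 753 at 24 h and 6667 at 48 h (538 and 1236 in the reported test).

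In 222 mM at 3 h, 1 became 0 with no filter or only the libraries compared, 2 with DESeq2 or the series criterion, 16 without the 4 libraries and 0 to 6 without single libraries. At 24 h, 1 became 3 with DESeq2, 2 with limma, 10 without the 4 libraries, 0 with only the libraries compared or the series criterion, and 0 to 5 without single libraries. At 48 h, 6 became 10 without the 4 libraries, 1 by the series criterion and 3 to 9 without single libraries. Of all genes, 0 at 3 h and 225 at 24 h were called with only the libraries compared (180 and 926 in the reported test).

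In 130 mM against regular medium, 6 at 3 h became 12 without the 4 libraries, 0 with only the libraries compared and 4 to 10 without single libraries. At 24 h, 6 became 0 by the series criterion and 1 to 5 without single libraries. At 48 h, 13 became 25 without the 4 libraries, 37 with only the libraries compared, 6 by the series criterion and 9 to 11 without single libraries. In 222 mM against regular medium, 13 at 3 h became 20 without the 4 libraries, 3 with only the libraries compared, 4 by the series criterion and 10 to 21 without single libraries. At 24 h, 17 became 26 without the 4 libraries, 3 by the series criterion and 12 to 17 without single libraries. At 48 h, 15 became 26 without the 4 libraries, 36 with only the libraries compared and 9 to 12 without single libraries. All genes called with only the libraries compared, 130 mM against regular medium, were 0 at 3 h and 9264 at 48 h. The reported test called 1911 and 3999. For 222 mM against regular medium they were 736 at 3 h and 8284 at 48 h (4800 and 3325 in the reported test).

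For the F tests, 16 for 130 mM against regular medium became 10 with no filter, 36 without the 4 libraries and 9 to 30 without single libraries. For 222 mM against regular medium 11 became 34 without the 4 libraries, 6 with only the libraries compared and 6 to 26 without single libraries. For 222 against 130 mM 13 became 21 with DESeq2, 31 without the 4 libraries, 22 with only the libraries compared and 9 to 28 without single libraries. Of all genes, 1479 and 5904 were called in these last F tests with only the libraries compared (3082 and 4901 in the reported test). Under the replicate block the number at 3 h in 222 mM was 1, as without the block. That block fits replicate effects shared by all 12 groups, so it cannot test a pairing seen in this comparison alone. The reported test did not use the pairing. With 3 libraries a group, a member that was not called may still have changed.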
